A study of Oryctolagus cuniculus with 3 samples.

Results

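LDHA, LDHB, SLC16A1, SLC16A3, MPC1, MPC2, PDK1, PDK2, PDK3 and PDK4 are 10 genes that act on pyruvate and lactate, and each was found by its gene name among the 20536 gene names of the deposited tables. They were followed through the differentiation of RCE1(5T5), a cell line of rabbit corneal epithelium. RNA was sequenced in 3 libraries, 1 for each stage: non-differentiated (day 4 of culture), committed (day 6) and terminally differentiated (day 10). Cultures of all 3 stages grew on a feeder layer of mouse 3T3 fibroblasts stopped from dividing with mitomycin C, in a medium with serum, insulin, transferrin, hydrocortisone, triiodothyronine, cholera toxin, adenine and epidermal growth factor. EDTA was used to take the feeder cells off before RNA was extracted, per the labels' protocols. No stage has a replicate library, so nothing was tested, and stage, day and library cannot be told apart.

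Pyruvate is the end product of glycolysis. Lactate dehydrogenase turns it into lactate and back in the cytosol, and the enzyme is a tetramer of subunits from LDHA, long associated with glycolytic tissue, and LDHB, long associated with aerobic tissue. Monocarboxylate transporters carry lactate across the plasma membrane, while the carrier formed by MPC1 with MPC2 takes pyruvate into mitochondria. There the pyruvate dehydrogenase complex makes acetyl-CoA, and the PDK kinases switch that complex off by phosphorylation. The corneal epithelium has no blood vessels and is known to rely heavily on glycolysis and to release lactate.

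Depth was 10171693 fragments for the non-differentiated library, 12582706 for the committed one and 10899578 for the terminally differentiated one. Levels are given as CPM, fragments per 1e6 after scaling by TMM (trimmed mean of M values), and brackets are exact 95% intervals that cover counting error only. Genes count as measured from 1 CPM in any library, which leaves 12818 genes and keeps all 10 members. "Rose" and "fell" stand for a difference of log2(CPM + 1) of 1 or more, that is 2-fold, a scale that understates the change of low genes. Between day 4 and day 6, 8.06% of measured genes rose and 6.73% fell, and between day 6 and day 10, 8.25% rose and 7.1% fell. From day 4 to day 10, 17.1% rose and 15.8% fell. Markers of the labelled tissue were present: KRT5, a keratin of basal epithelium, was at 15650, 23374 and 13552 CPM, and KRT3, the corneal type II keratin, at 149.6, 954 and 2018 CPM. KRT12, the partner of KRT3, had no fragment on day 4. Of 10 measured corneal epithelium markers, 7 rose at commitment, 5 from day 6 to day 10 and 6 over the whole interval, and 0 fell. Others were lower after day 4: CDH1 was at 291.2, 208.7 and 154.8 CPM and EPCAM at 127.2, 95.1 and 95.3 CPM. CDH1 counted as fallen from day 4 to day 10 without TMM or with the deposited TPM. The 20 listed fibroblast markers added up to 7900 CPM on day 4, 4935 on day 6 and 3038 on day 10, with LUM at 0 fragments throughout and COL1A1 at 542, 312 and 265 CPM. Highest among them in every library were ACTA2, at 2362, 1644 and 1246 CPM, and VIM, at 1527, 1203 and 581 CPM. The feeder is mouse and the build rabbit, and how far feeder fragments were counted is not known, so the sum does not measure feeder content. Of the 5 leukocyte markers TYROBP, FCER1G and CD3E had 0 fragments in every library, and the list summed to at most 2.29 CPM. Of the 3 endothelium markers PECAM1 had 0 fragments in every library. At commitment KDR rose from 2.39 to 6.8 CPM and CDH5 fell from 1.93 to 0.415 CPM. In RNA from whole cultures, fewer cells of a type and less RNA per cell cannot be told apart.

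Of the 10 members, 3 rose at commitment (LDHA, SLC16A3 and PDK2) and 0 fell, against 8.06% and 6.73% of all measured genes. From day 6 to day 10 only MPC2 rose and 0 fell, against 8.25% and 7.1%. Over the whole interval LDHA, LDHB, SLC16A3, PDK2 and PDK3 rose, 5 of 10, and 0 fell, against 17.1% and 15.8%. The median difference of the members was 0.71 on the log2 scale from day 4 to day 6, 0.18 from day 6 to day 10 and 1.03 from day 4 to day 10, where all measured genes had medians of 0.00, -0.01 and 0.01. The comparisons share libraries, so these counts are not separate results. The members were chosen with earlier results of these data known, as were the gene lists below. Their differences from all measured genes are therefore a description and not a test.

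**Figure D1:**
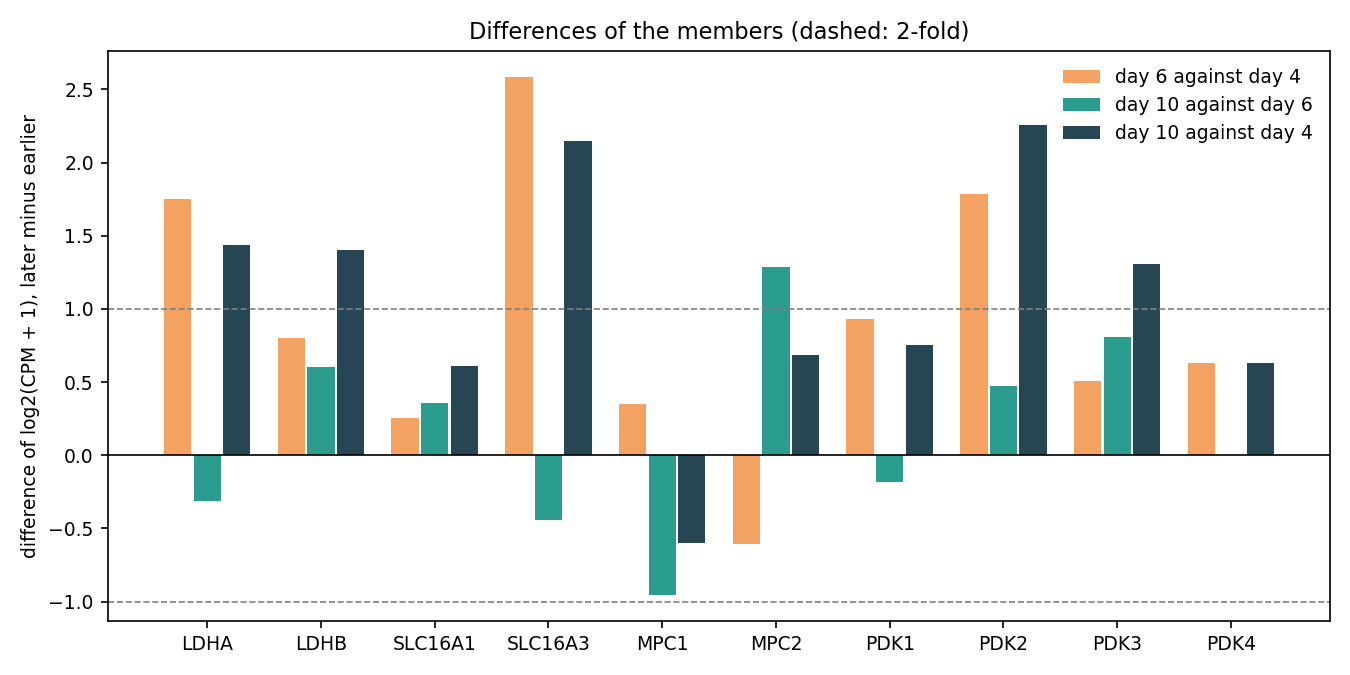
Difference of log2(CPM + 1) between 2 libraries, later minus earlier, for each of the 10 members in the 3 comparisons, with dashed lines at 2-fold. SLC16A3 had the tallest bar at commitment (2.59), MPC2 was the only member past the line from day 6 to day 10 (1.29), and MPC1 came close to the line on the other side (-0.95).

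LDHA, which codes for the muscle-type subunit, was by far the most abundant member. It had 35706, 133000 and 94268 fragments on days 4, 6 and 10, or 3277, 11030 and 8879 CPM. The level peaked on day 6 and stayed well above the day 4 level on day 10. LDHA rose 3.37-fold [3.33 to 3.41] at commitment, and only 1.69% of measured genes had a larger difference. On day 10 it was at 0.805 of its day 6 level [0.798 to 0.812], which is not a fall by the 2-fold rule, and it had risen 2.71-fold [2.68 to 2.74] since day 4. By the authors' TPM, which is scaled for length and depth and was summed here per gene, LDHA was the 24th gene of the library on day 4, the 5th on day 6 and the 7th on day 10.

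The LDHA value is the sum of 2 coding rows. The row of protein XP_008273294.1 has an implied coding length of 1086 bases and that of NP_001075746.1 one of 999 bases, a difference of 87 bases. The longer row held 18250.6, 67934.4 and 48205.3 fragments on days 4, 6 and 10, and the shorter row 17455.6, 65065.4 and 46062.8. Both rows peaked on day 6, and both rose from day 4 to day 6, the longer 3.36-fold [3.31 to 3.42] and the shorter 3.37-fold [3.31 to 3.43]. The longer row took 51.113%, 51.079% and 51.136% of the LDHA fragments, so the balance of the rows barely differed between stages. The longer row exceeded the shorter by 795, 2869 and 2142.5 fragments on the 3 days. Their counts are fractional, as when fragments shared among rows are split, so the rows are not treated as separate measurements of 2 isoforms.

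LDHB, which codes for the heart-type subunit, followed another course. It had 13878, 26739 and 35798 fragments, or 1274, 2218 and 3372 CPM, each library higher than the one before. The steps were 1.74-fold [1.71 to 1.78] from day 4 to day 6 and 1.52-fold [1.5 to 1.54] from day 6 to day 10. Neither step alone reached the 2-fold rule on the scale used, but LDHB rose 2.65-fold [2.6 to 2.7] from day 4 to day 10, close to the 2.71-fold of LDHA. Its 2 coding rows, each of 1005 bases, held equal counts in every library and cannot be told apart.

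The balance between the subunit genes moved away from LDHB at commitment and back afterwards. LDHB made up 28.0% [27.6 to 28.4] of the fragments of the pair on day 4, 16.7% [16.6 to 16.9] on day 6 and 27.5% [27.3 to 27.8] on day 10. The day 6 interval lay apart from both others, while those of day 4 and day 10 overlapped. A share within 1 library does not depend on how libraries are scaled to each other. Per length, by the authors' TPM, LDHA stood 2.49 times above LDHB on day 4, 4.86 times on day 6 and 2.55 times on day 10. Together the pair took 0.442% of the TPM of the library on day 4, 0.994% on day 6 and 0.905% on day 10. Their total RNA on day 10 was near that of day 6, with an LDHB share near that of day 4. The subunit proteins were not measured.

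**Figure D2:**
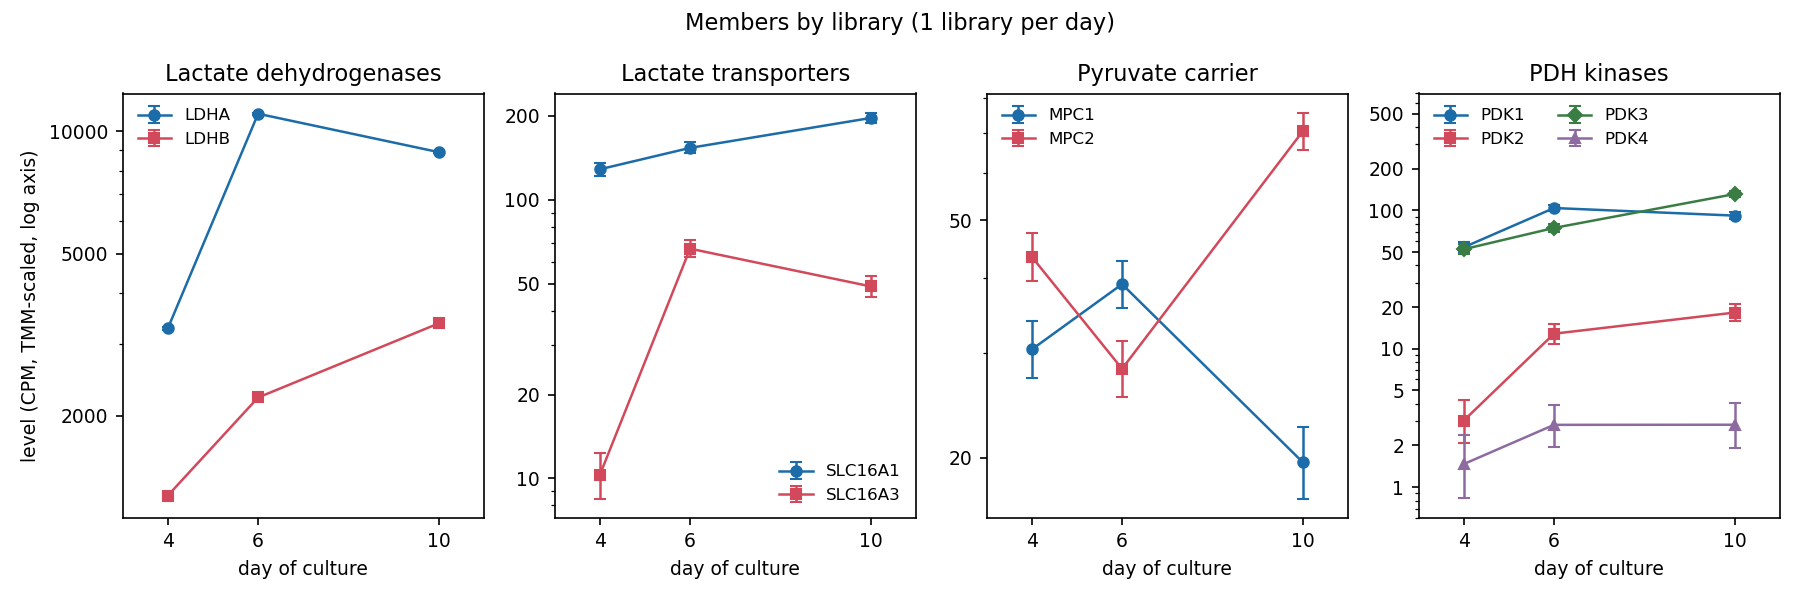
Level in CPM (log axis) of the 10 members against day of culture, 1 library per day, with bars for the exact 95% Poisson counting interval, which are smaller than the symbol for LDHA and LDHB. LDHA, SLC16A3 and PDK1 had their highest point on day 6, and LDHB, SLC16A1, PDK2 and PDK3 on day 10. MPC1 and MPC2 cross between each pair of neighbouring days in CPM, which is not scaled for length. By TPM they cross only between day 6 and day 10.

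The lactate transporters differed in course. SLC16A3 codes for MCT4, a transporter of glycolytic cells that mainly exports lactate, and SLC16A1 for MCT1, a widely expressed transporter that works in both directions. SLC16A3 had 112, 805 and 519 fragments on days 4, 6 and 10, or 10.3, 66.8 and 48.9 CPM, low only in the day 4 library. It rose 6.5-fold [5.33 to 7.99] at commitment, where 0.531% of measured genes had a larger difference, and was 4.76-fold [3.87 to 5.89] above day 4 on day 10. Its 3 coding rows held equal counts in every library. SLC16A1 had 1402, 1852 and 2088 fragments, or 128.7, 153.6 and 196.7 CPM. It neither rose nor fell: the ratio to day 4 was 1.19 [1.11 to 1.28] on day 6 and 1.53 [1.43 to 1.64] on day 10. With the deposited TPM the first of these differences turned, from 0.25 to -0.08 on the log2 scale.

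Within the pair, SLC16A3 took 7.4% [6.13 to 8.83] of fragments on day 4, 30.3% [28.6 to 32.1] on day 6 and 19.9% [18.4 to 21.5] on day 10, with no overlap among the 3 intervals. SLC16A1 remained the more abundant of the pair per length in every library, 9.33 times above SLC16A3 on day 4, 1.85 times on day 6 and 3.06 times on day 10 by TPM. BSG, the chaperone that brings both transporters to the cell surface, was at 13.6, 23.1 and 19.9 CPM, with a ratio of 1.7 [1.39 to 2.09] between day 6 and day 4 that is short of a rise on the log2 scale with 1 added.

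The pyruvate carrier genes differed in opposite directions at both steps. All 9 alternatives kept this contrast of signs, but other pseudocounts and CPM minimums cannot turn a sign. With the deposited TPM MPC1 barely differed at commitment, by 0.04 on the log2 scale, from 129.3 [115.7 to 144.0] to 133.0 [121.3 to 145.6] TPM. The carrier works as a complex of MPC1 with MPC2, and loss of either subunit is known to destabilise the other protein. MPC1 had 331, 471 and 209 fragments on days 4, 6 and 10, or 30.4, 39.1 and 19.7 CPM. MPC2 had 473, 340 and 747 fragments, or 43.4, 28.2 and 70.4 CPM. MPC1 was highest where MPC2 was lowest, on day 6, and lowest where MPC2 was highest, on day 10. From day 6 to day 10 MPC2 rose 2.5-fold [2.19 to 2.85], a difference exceeded by 4.69% of measured genes. Over the same step MPC1 dropped to 0.504 [0.426 to 0.594] of its level. That difference of -0.95 on the log2 scale missed the 2-fold rule, and 8.0% of measured genes had a lower one. With the deposited TPM it was -1.03 and counted as a fall. At commitment the ratios were 1.29 [1.11 to 1.48] for MPC1 and 0.65 [0.563 to 0.748] for MPC2.

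MPC2 made up 58.8% [55.3 to 62.3] of the fragments of the pair on day 4, 41.9% [38.5 to 45.4] on day 6 and 78.1% [75.4 to 80.7] on day 10, and none of these intervals overlap. Per length, MPC2 stood at 0.763 of MPC1 on day 4, 0.385 on day 6 and 1.86 on day 10 by TPM. The summed TPM of the pair was 227.9, 184.2 and 185.2 on days 4, 6 and 10, and their summed CPM was 73.8, 67.3 and 90.0. Both genes have short coding rows, with an implied length of 201 bases for MPC1 and 384 for MPC2. The MPC1 values speak only for the stretch of the gene that this 1 row covers.

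**Figure D3:**
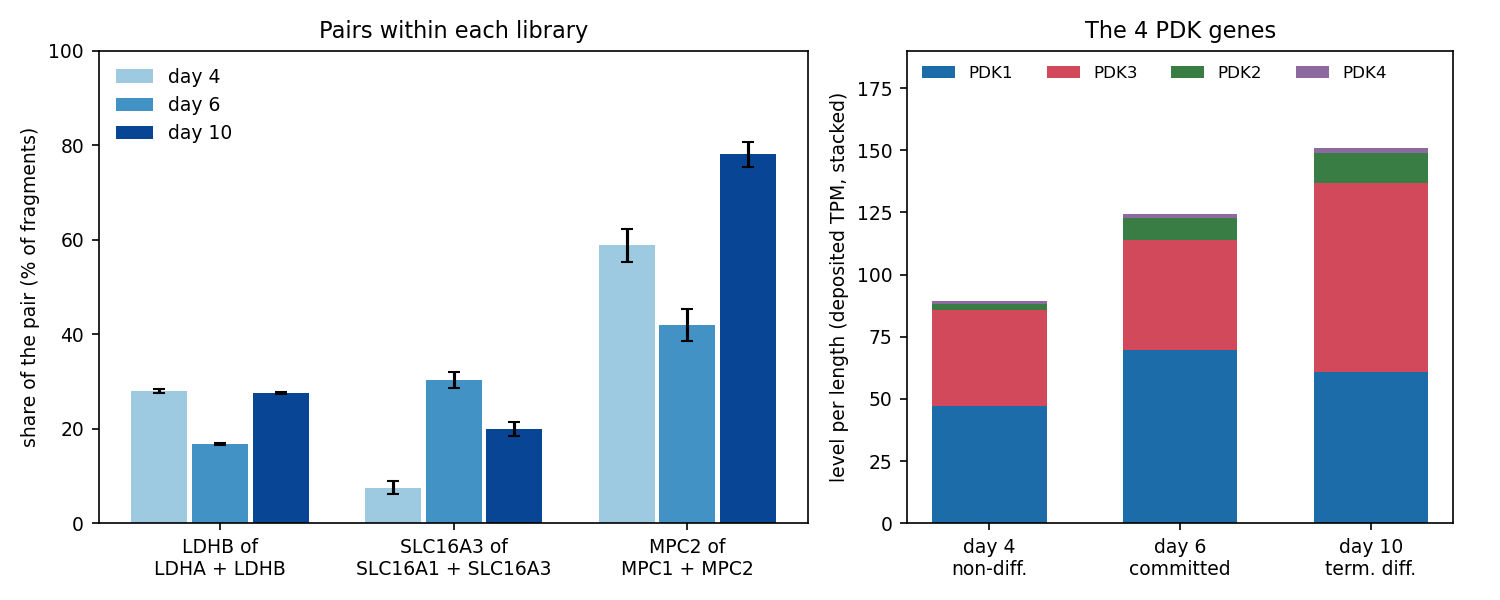
Left, share of LDHB, SLC16A3 and MPC2 in the fragments of its pair in each library, with exact 95% binomial intervals. LDHB was lowest on day 6 (16.7%) and SLC16A3 highest (30.3%), while MPC2 went from 41.9% on day 6 to 78.1% on day 10. Right, deposited TPM of the 4 PDK genes stacked per library, with sums of 89.4, 124.3 and 150.7.

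The 4 kinases of pyruvate dehydrogenase are known to differ in tissue and in what induces them: PDK1 is a target of hypoxia-inducible factor, and PDK4 is induced by fasting and glucocorticoids in many tissues. PDK1 had 590, 1255 and 974 fragments, or 54.1, 104.1 and 91.7 CPM, lowest on day 4. Its ratio at commitment was 1.92 [1.74 to 2.12], with a log2 difference of 0.93 that missed the 2-fold rule, and 9.4% of measured genes had a larger one. PDK3 had 571, 901 and 1394 fragments, or 52.4, 74.7 and 131.3 CPM, higher in each library than in the one before. PDK3 rose 2.51-fold [2.27 to 2.77] from day 4 to day 10. That call was lost with the deposited TPM, where the log2 difference was 0.96 in place of 1.31.

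PDK2 had 33, 155 and 194 fragments on days 4, 6 and 10, or 3.03 [2.08 to 4.25], 12.9 [10.9 to 15] and 18.3 [15.8 to 21] CPM. PDK2 was among the lowest members in every library. It was lowest in the day 4 library, rose 4.24-fold [2.9 to 6.38] at commitment and was 6.03-fold [4.16 to 9.01] above day 4 on day 10. PDK4 was close to the limit of these libraries, with 16, 34 and 30 fragments or 1.47 [0.839 to 2.38], 2.82 [1.95 to 3.94] and 2.83 [1.91 to 4.03] CPM. The ratio of day 6 to day 4 was 1.92 [1.03 to 3.73], with a log2 difference of 0.63 short of the rule, and that of day 10 to day 6 was 1.0 [0.592 to 1.69], a wide interval at this depth.

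PDK1 and PDK3 exchanged places among the kinases. PDK1 took 48.8% [45.9 to 51.6] of the fragments of the 4 PDK genes on day 4, 53.5% [51.5 to 55.6] on day 6 and 37.6% [35.7 to 39.5] on day 10. PDK3 took 47.2% [44.3 to 50], 38.4% [36.4 to 40.4] and 53.8% [51.8 to 55.7]. On day 4 the intervals of these 2 shares overlapped, on day 6 the share of PDK1 was the larger and on day 10 that of PDK3. Fragments are not scaled for length, and the PDK3 row is the longer, at 1249 against 1109 bases. Per length, by TPM, PDK1 stood above PDK3 on day 4 already, at 47.1 [43.4 to 51.1] against 38.6 [35.5 to 41.9]. On day 6 the values were 69.5 against 44.4, and on day 10 60.8 against 75.9. PDK2 went from 2.73% of the fragments to 6.61% and 7.48%. The 4 genes together summed to 111.0, 194.5 and 244.1 CPM. The 5 subunit genes of the complex they act on (PDHA1, PDHB, DLAT, DLD and PDHX) summed to 438.0, 367.6 and 305.9 CPM, so the sums moved in opposite directions at both steps. Not every gene followed its sum. DLD was at 103.3, 117.9 and 112.1 CPM, higher on day 6 than on day 4, and PDK1 went from 104.1 to 91.7 CPM after day 6.

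The order of the members by level per length, from the authors' TPM, began with LDHA and LDHB and ended with PDK2 and PDK4 in every library. On day 4 MPC1 at 129.3 TPM came next, followed by MPC2 at 98.6 and SLC16A1 at 92.4, and the counting intervals of the last 2 overlapped. On day 10 MPC2 at 120.5 and SLC16A1 at 110.0 led the middle ranks with overlapping intervals, followed by PDK3 at 75.9, MPC1 at 64.7 and PDK1 at 60.8, where each overlapped the next. On day 6 MPC2 at 51.2, SLC16A3 at 47.1 and PDK3 at 44.4 could not be ordered beyond counting error. LDHA was never within 2 times of the gene below it. The places of MPC1 rest on its 1 short row, with an implied length of 201 bases.

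Genes that feed and drain pyruvate mostly stayed within 2-fold, as did most measured genes. Of 17 measured, 2 rose and 0 fell from day 4 to day 6, 1 rose and 2 fell from day 6 to day 10, and 3 rose and 3 fell over the whole interval, against 8.06% and 6.73%, 8.25% and 7.1%, and 17.1% and 15.8% of all measured genes. PKM, the pyruvate kinase of most tissues, was at 1709, 3201 and 2419 CPM, highest on day 6 like LDHA. Its ratio at commitment was 1.87 [1.84 to 1.91]. PDHA1, the catalytic alpha subunit of pyruvate dehydrogenase and the target of the PDK kinases, was at 120.9, 89.0 and 65.2 CPM. It was at 0.539 [0.491 to 0.592] of its day 4 level on day 10, and without TMM or with the deposited TPM it counted as fallen. PDP2, a phosphatase that undoes the phosphorylation by PDK, had 106, 56 and 14 fragments and fell 7.38-fold [4.21 to 14] from day 4 to day 10.

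PCK2, the mitochondrial enzyme that makes phosphoenolpyruvate from oxaloacetate, rose 4.17-fold [3.85 to 4.52] at commitment, from 68.6 to 285.8 CPM, and was at 193.5 CPM on day 10. Its cytosolic relative PCK1 rose 5.57-fold [3.37 to 9.75], from 18 to 111 fragments, and had 58 on day 10. ME1, the cytosolic malic enzyme, which yields pyruvate and NADPH, was at 13.5, 7.63 and 34.8 CPM and rose 4.55-fold [3.62 to 5.79] from day 6 to day 10. The mitochondrial ME2 fell 3.04-fold [2.56 to 3.64] from day 4 to day 10, from 48.5 to 15.9 CPM. GPT2, a mitochondrial enzyme that interconverts pyruvate and alanine, had 67, 130 and 24 fragments and fell 4.77-fold [3.07 to 7.71] after day 6. The counts of this list moved with the scaling: over the whole interval 3 rose and 5 fell without TMM, and 2 rose and 5 fell with the deposited TPM, where PDHA1 and DLAT counted as fallen and PCK1 no longer as risen. At commitment PDP2 fell without TMM or with the deposited read counts, and PDP2 and ME2 with TPM.

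Among relatives of the members and partners of the transporters, 6 of the 9 genes found were measured, the highest reaching 30.0 CPM. LDHD, a mitochondrial dehydrogenase of D-lactate, rose at commitment from 5 to 37 fragments, a ratio of 6.69 [2.62 to 21.8]. LDHAL6B, known as a testis form of lactate dehydrogenase in humans, had 127, 120 and 47 fragments and fell 2.63-fold [1.87 to 3.76] from day 4 to day 10. MPC1L, a relative of MPC1, had 50, 38 and 18 fragments and fell 2.71-fold [1.55 to 4.93] over the same interval. SLC16A7, which codes for the transporter MCT2, had 1, 0 and 4 fragments.

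Shuttles that carry NADH equivalents from the cytosol into mitochondria offer another way than lactate dehydrogenase to restore NAD. None of the 10 genes of these shuttles rose in any of the 3 comparisons, where 8.06%, 8.25% and 17.1% of all measured genes did. At commitment 1 fell, against 6.73% of all measured genes: GPD1L, a relative of glycerol 3-phosphate dehydrogenase, went from 23.9 to 10.2 CPM. From day 6 to day 10 MDH2 and SLC25A11 fell, and from day 4 to day 10 MDH2, GPD1L and SLC25A13, against 7.1% and 15.8% of all measured genes. MDH2, the mitochondrial malate dehydrogenase, was at 314.8, 280.2 and 89.5 CPM and fell 3.13-fold [2.91 to 3.37] at the second step. Its cytosolic counterpart MDH1 was at 204.3, 262.5 and 273.7 CPM. SLC25A11, the oxoglutarate and malate carrier, fell 2.17-fold [1.95 to 2.42] after day 6, and SLC25A13, an aspartate and glutamate carrier, fell 2.22-fold [1.95 to 2.54] over the whole interval. The median of the list was -0.03, -0.66 and -0.68 in the 3 comparisons. With the deposited TPM 6 of the 10 fell from day 4 to day 10.

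**Figure D4:**
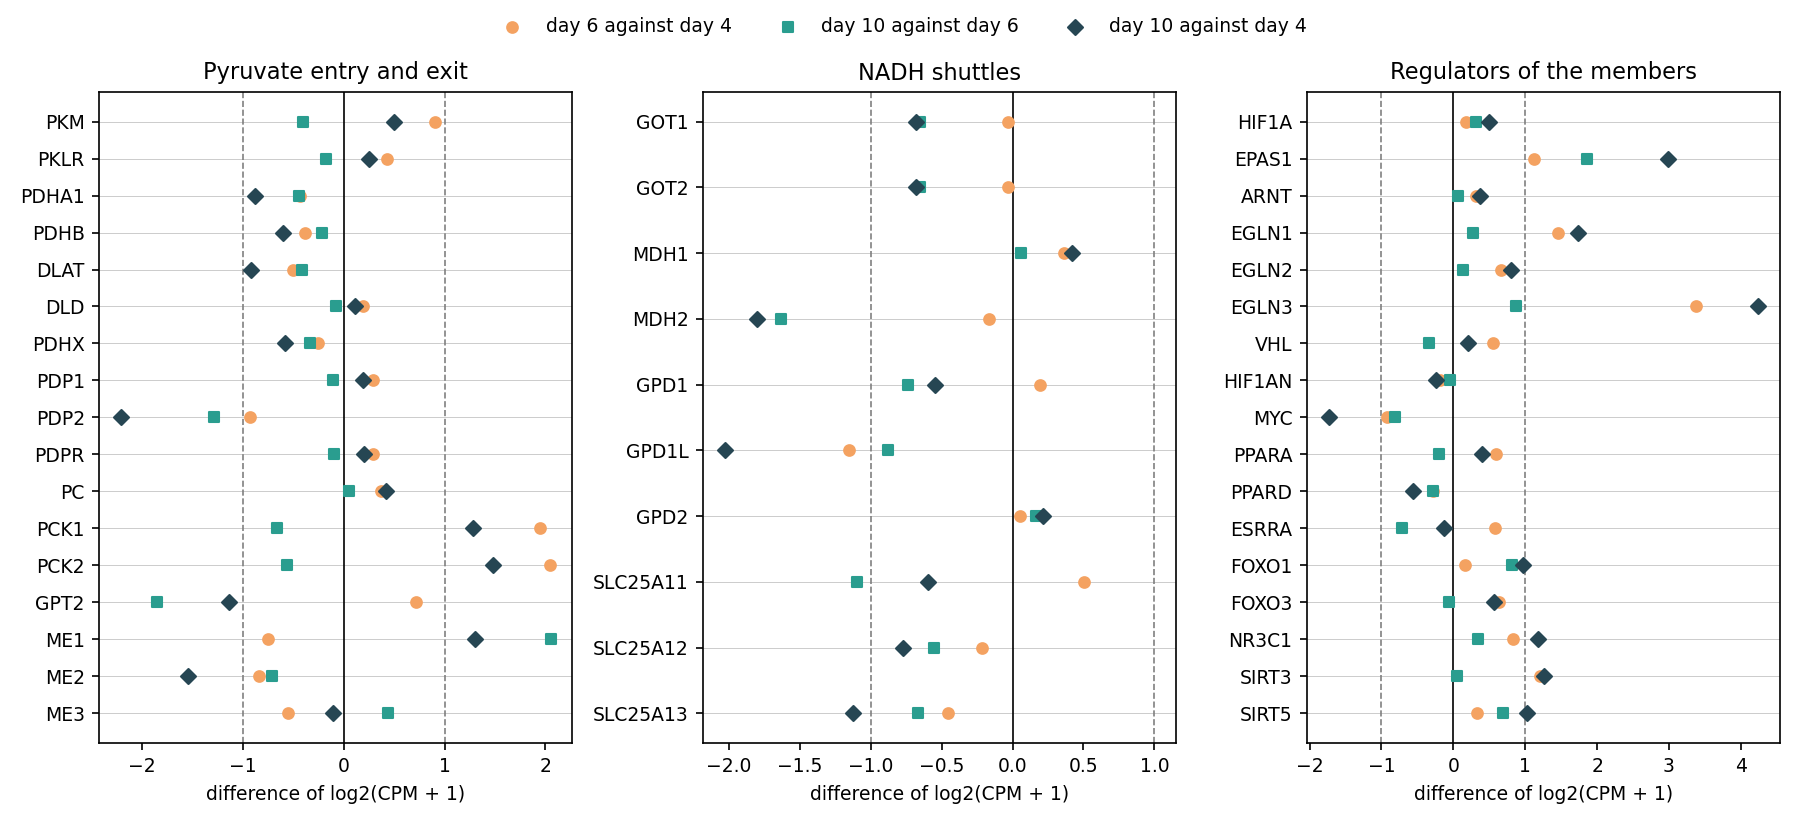
Difference of log2(CPM + 1), later minus earlier, for the measured genes of 3 lists, with 1 symbol per comparison and dashed lines at 2-fold. EGLN3 (4.24) and EPAS1 (2.99) lay farthest to the right from day 4 to day 10, and PDP2 (-2.21), GPD1L (-2.03) and MDH2 (-1.80) farthest to the left among the named genes.

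Of 17 measured regulators of the members, 4 rose and 0 fell at commitment, 1 rose and 0 fell from day 6 to day 10, and 6 rose and 1 fell over the whole interval. The shares of all measured genes that rose were 8.06%, 8.25% and 17.1%, and those that fell 6.73%, 7.1% and 15.8%. HIF1A, the oxygen-regulated subunit of hypoxia-inducible factor, known mainly for control at the protein level, was at 565, 640 and 798 CPM and neither rose nor fell. EGLN3 and EGLN1, prolyl hydroxylases that mark that factor for breakdown and are themselves its targets, rose at commitment by 11.4-fold [9.28 to 14.2] and 2.82-fold [2.43 to 3.27]. EPAS1, a sister of HIF1A, had 14, 48 and 182 fragments and was 13.3-fold [7.75 to 24.9] above day 4 on day 10. MYC, a transcription factor of cell growth, was at 90.2, 47.3 and 26.4 CPM and fell 3.42-fold [2.99 to 3.92] from day 4 to day 10. Without TMM, and with the deposited TPM, it also counted as fallen at commitment. NR3C1, the glucocorticoid receptor, rose 2.35-fold [1.92 to 2.9] from day 4 to day 10, from 12.5 to 29.4 CPM. The mitochondrial deacylases SIRT3 and SIRT5 rose 2.96-fold [1.89 to 4.78] and 2.07-fold [1.81 to 2.38] over the same interval. With the deposited TPM only EGLN1 and EGLN3 rose at commitment, and from day 4 to day 10 NR3C1, SIRT3 and SIRT5 no longer did. SIRT5 also missed the rule without TMM.

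The genes most like a member were sought by the distance between pairs of log2 differences (day 6 minus day 4, day 10 minus day 6) among 8095 measured genes with a symbol and at least 10 CPM in the highest library. Each likeness rests on 3 libraries only and is a description. Nearest to LDHA were PQLC3, MCFD2 and MOCOS, all within 0.041 and all far less abundant, at 16.3, 29.2 and 16.4 CPM on day 6. Close to LDHB were PPFIBP2 at 0.00892 and IFNAR1 at 0.0148. SLC16A3 had no gene so close: OAS3, EFNA1 and DHX58 lay at 0.13, 0.165 and 0.2. Nearest to PDK1 were RPS12, DDX59 and CAPG.

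Of 19 measured fibroblast markers, 0 rose and 6 fell from day 4 to day 6, where 8.06% of all measured genes rose and 6.73% fell. Without TMM 11 of them fell at this step, and with the deposited TPM 13. From day 6 to day 10, 1 rose and 7 fell (all genes, 8.25% and 7.1%), and from day 4 to day 10, 1 rose and 16 fell (17.1% and 15.8%). The riser was THY1, a surface glycoprotein, at 19.6, 16.8 and 76.9 CPM. Their summed level of 7900, 4935 and 3038 CPM was lowest on day 10. Fibroblasts also express LDHA, and the part of any fibroblasts in the members' differences was not tested.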

How the data were processed

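Each library has 1 deposited table with 38696 coding rows, filed under 20536 gene names. The authors deposited fragment and read counts, which by their values are expected counts, as when shared fragments are split among rows: 44.9% to 46.5% of the fragment counts per library are fractional. The deposited raw transcript count, by its values a coverage signal, was not used. Per the file headers, the authors also gave FPKM, RPKM and TPM, scaled for length and depth. The submitters' processing notes name build OryCun2.0. Aligner, counter and strand setting: not given in the sources used here. Hence antisense or overlapping genes cannot be told apart.

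Fragment counts were summed per gene name and rounded, with totals of 10171633, 12582648 and 10899544, and scaled with TMM factors of 1.071, 0.958 and 0.974 (edgeR 4.0.16, R 4.3.3). Differences, exact Clopper-Pearson and Poisson intervals and shares were computed with scipy 1.17.1. Coding lengths are those implied by the deposited FPKM. PCR copies are not independent molecules, and a count of 0 allows up to 3 fragments, which is 0.249 to 0.283 CPM. The method was tested on simulated Poisson counts with known folds. These had no variation between cultures, so they cannot show how well a single library stands for its stage. Alternatives were no TMM, DESeq2 1.42.0 size factors, deposited TPM, read counts, the highest coding row, other pseudocounts, CPM minimums and fold thresholds.

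The members and the gene lists were chosen with earlier results of these data known. Named genes are the members, up to 2 risers and 2 fallers of each list per comparison, PKM, PDHA1, BSG and HIF1A, the 3 genes most like each of 5 members (1 of them is not reported here, nor those of PDK4, at 16, 34 and 30 fragments), and KRT3, KRT5 and COL1A1. NR3C1, SIRT3, SIRT5, SLC25A13, MDH1, SLC16A7, the markers at 0 fragments and the other subunits of the dehydrogenase complex were named after their values were seen. So were KRT12, CDH1, EPCAM, KDR, CDH5, ACTA2 and VIM.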

Additional observations from a re-analysis of the deposited data

How the results depend on the processing

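No paired analysis was possible because each stage has 1 library, and for the same reason no library could be left out. Of 270 values of the members' differences under 9 alternatives, 1 had the opposite sign (SLC16A1 at commitment with TPM). Other pseudocounts and CPM minimums cannot turn a sign, so their part of these values does not bear on it. With TPM the median of all genes moved to -0.28 at commitment and -0.29 over the whole interval, and without TMM to -0.14 and -0.11. The genes that rose, as a share of those that rose or fell at commitment, were 54.5%, but 39.3% without TMM and 25.5% with TPM, and from day 4 to day 10 they were 52.0%, but 32.0% with TPM. With TPM 558 genes rose and 1628 fell at commitment, 1383 rose from day 4 to day 10, and 1 member fell from day 6 to day 10 (MPC1). The reported counts of all genes were 1033 and 863, 1058 and 910, and 2190 and 2024, in the order of day 6 against day 4, day 10 against day 6 and day 10 against day 4. A pseudocount of 5 gave 472 and 451, 562 and 452, and 1324 and 1319. At 1.5-fold they were 2510 and 2310, 2449 and 2458, and 3715 and 3542, and the members that rose and fell 6 and 1, 3 and 1, and 9 and 1. At 4-fold they were 151 and 86, 215 and 32, and 603 and 396, and the members that rose 1, 0 and 2. The LDHB share of 28.0%, 16.7% and 27.5% was 28.66%, 17.06% and 28.14% with TPM and 27.55%, 16.44% and 27.08% with the highest coding row. Depth limits PDK4, at 34 fragments or fewer, and LDHD, PDP2 and MPC1L. It also limits the folds of PDK2, EPAS1, PCK1 and SIRT3, at 33, 14, 18 and 27 fragments on day 4, and of GPT2, at 24 on day 10. The PDK2 difference at commitment was 1.15 with a pseudocount of 5 and 2.05 with 0.1.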
